A study of Mus musculus with 4 samples.

Results

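Vitamin E was given together with 4-hydroxytamoxifen (4-OHT), and the array of that group was set against the array of 4-OHT alone. Both were mouse retinas grown in suspension from induced pluripotent stem cells (3D-retinas), of an Nrl-GFP line in which rods glow green because the reporter is driven by the rod gene Nrl. A probe entered the comparison where its spot rose well clear of background with 4-OHT, with vitamin E, or with both. That held for 30897 of 55681 probes on the design and 22151 of 35737 genes, and the comparison used 2 of the 4 arrays of the series. The 4 groups were ethanol as vehicle, 4-OHT alone at 5 µM, that dose together with vitamin E at 400 µM, and that dose together with lutein, a carotenoid of the macula, at 200 nM. Optic cups picked for bright GFP received the compounds from differentiation day 23 until harvest on day 25, which the labels describe as the day when GFP ceased to brighten and photoreceptors began to degenerate. Every group was 1 array of RNA from 24 pooled 3D-retinas, and no group received vitamin E without 4-OHT. No difference here therefore has a replicate check or a p-value. Differences are sizes between these arrays, and 2-fold is a fixed limit for counting a gene and not a test.

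Tamoxifen is an estrogen receptor modulator with a known toxicity to the retina, and 4-OHT is its active metabolite. Vitamin E is a lipid-soluble antioxidant that stops chain reactions of lipid peroxidation in membranes. Several stress pathways meet in the integrated stress response, in which kinases phosphorylate eIF2alpha, general translation slows, and the transcription factor ATF4 turns on genes for amino acid supply, redox balance and, when stress lasts, cell death. Rods carry their light-sensing machinery in outer segments, stacks of membrane rich in polyunsaturated lipid, whose genes are switched on by CRX, NRL and NR2E3.

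Promoter stretches of 14 genes show the motifs that were counted in the groups described below. These genes were chosen because they hold a motif, and most members of the stress response, inflammation and rod lists do not hold the motif counted for them. The table held 250 bases before and 50 after each RefSeq start (build GRCm38.p6), and each stretch lies before the start and is written 5′ to 3′ along the motif, with the motif in capitals. Mt2 (chr8:94172368-94172617, + strand) is shown with its whole 250 upstream bases because its metallothionein was among the genes that differed most, and its capitals mark metal response elements, TGCNCNC on either strand.
Mt2: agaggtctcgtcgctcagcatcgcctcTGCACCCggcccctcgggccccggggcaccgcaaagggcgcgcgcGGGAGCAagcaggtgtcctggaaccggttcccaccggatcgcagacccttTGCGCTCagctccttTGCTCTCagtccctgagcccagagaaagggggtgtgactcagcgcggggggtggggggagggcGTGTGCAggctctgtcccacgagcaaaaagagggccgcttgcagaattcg
The composite element bound by ATF4 and C/EBP factors, TGATGNAAT, is shown for 4 genes that were lower on the vitamin E array. They are Slc23a3 (chr1:75134027-75134065, - strand), Nupr1 (chr7:126625558-126625596, + strand), Pycr1 (chr11:120643828-120643866, - strand) and Gars (chr6:55037955-55037993, - strand).
Slc23a3: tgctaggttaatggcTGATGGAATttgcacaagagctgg
Nupr1: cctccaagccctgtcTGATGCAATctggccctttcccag
Pycr1: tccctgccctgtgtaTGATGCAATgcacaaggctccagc
Gars: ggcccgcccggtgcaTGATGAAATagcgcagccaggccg
The AP-1 element, TGANTCA, is shown for a protease receptor, a chemokine and an amino acid transporter. They are Plaur (chr7:24462399-24462435, + strand), Cxcl10 (chr5:92348942-92348978, - strand) and Slc7a1 (chr5:148400006-148400042, - strand).
Plaur: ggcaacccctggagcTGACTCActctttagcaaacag
Cxcl10: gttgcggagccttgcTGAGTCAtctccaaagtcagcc
Slc7a1: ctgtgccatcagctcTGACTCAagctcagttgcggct
The heat shock element, GAANNTTC, is shown for the chaperone genes Hspa1a (chr17:34972238-34972275, - strand) and Hspb1 (chr5:135887807-135887844, + strand). The Hspb1 stretch opens with the last letters of a neighbouring element.
Hspa1a: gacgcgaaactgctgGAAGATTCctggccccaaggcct
Hspb1: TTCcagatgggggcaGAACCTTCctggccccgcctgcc
The element of the photoreceptor factor CRX, TAATCC, is shown for 4 photoreceptor genes that were higher on the vitamin E array. They are Cnga1 (chr5:72642960-72642995, - strand), Cngb1 (chr8:95306590-95306625, - strand), Samd7 (chr3:30746139-30746174, - strand) and Crx itself (chr7:15879956-15879991, + strand).
Cnga1: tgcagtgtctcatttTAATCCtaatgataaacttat
Cngb1: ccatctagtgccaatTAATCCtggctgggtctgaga
Samd7: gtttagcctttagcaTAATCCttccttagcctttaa
Crx: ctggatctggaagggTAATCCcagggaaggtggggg

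With vitamin E, stress, inflammatory and immediate early genes were lower than with 4-OHT alone, and rod and mitochondrial genes were higher. Of 22151 genes, 1952 (8.81%) were at least 2-fold lower on the vitamin E array and 329 (1.49%) at least 2-fold higher. Among the 14331 with a gene symbol, the counts were 737 lower (5.14%) and 207 higher (1.44%), and the counts below are read against these shares. The higher genes made up 14.4% of all genes past 2-fold, but 31.0% after quantile normalization and 34.3% when arrays were scaled on spike-in probes. The median difference was 0.08 over all genes and 0.16 over genes with a symbol, on a log2 scale on which 1 is 2-fold. Larger differences lay mostly on the lower side: at 4-fold the symbols numbered 169 lower and 14 higher, and at 8-fold 40 lower and 0 higher. Levels below are log2 signal relative to the array's 75th percentile, and one gene's level cannot be set against another's. Levels with vehicle and lutein are given beside them, and every comparison drawn against 4-OHT uses that same array.

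**Figure D1:**
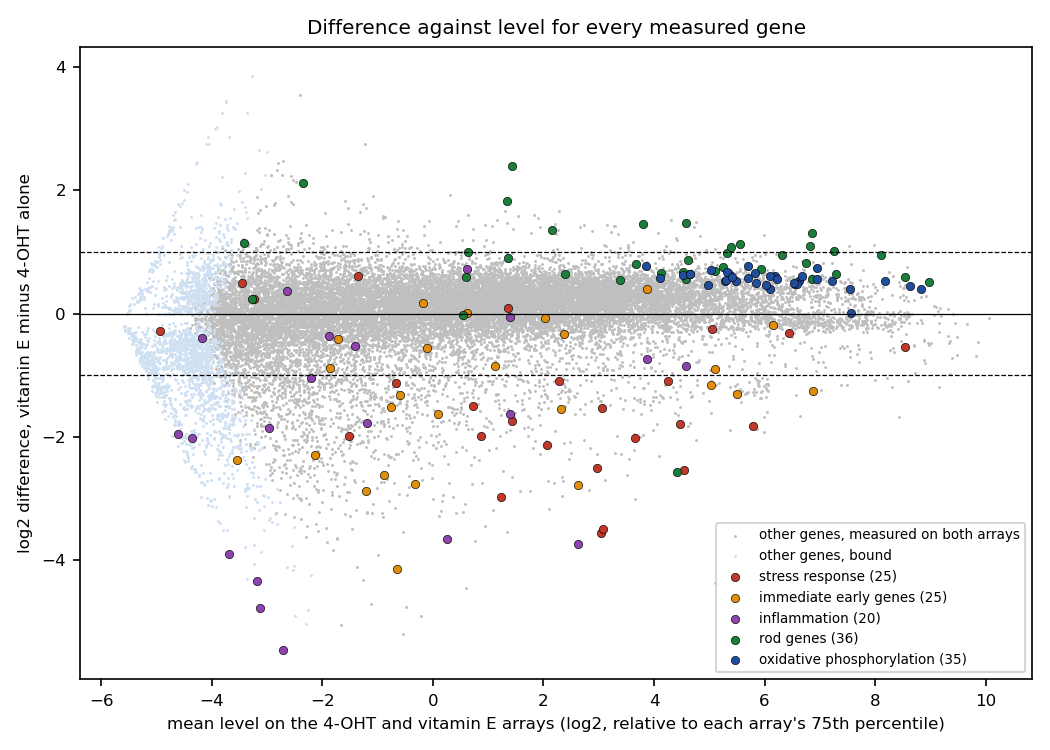
The log2 difference (vitamin E minus 4-OHT alone, vertical) is plotted against the mean log2 level on both arrays (horizontal) for each measured gene, with dashed lines at 2-fold and 5 gene lists in colour. Members of the stress response, immediate early and inflammation lists lie mostly below 0, and 34 of 36 rod genes and all 35 oxidative phosphorylation genes lie above 0.

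All 4 arrays came from a single slide and a single scan, so that a group's place on that slide and its treatment cannot be told apart. No spot was saturated, and the share of gene spots that cleared background ranged from 51.3% to 54.5%. Spots of a probe printed 10 times on an array gave a spot SD of 0.096 for a difference between arrays, which leaves out all variation between cultures. The tissue label was checked against markers. Rod genes such as Nrl and Gnat1 were measured on every array. Rpe65 of the pigment epithelium, Aif1, Cx3cr1, Tyrobp, C1qa, P2ry12 and Ptprc of microglia and blood cells, and the pluripotency gene Pou5f1 were not well above background on either array compared. Other members of their lists were measured: 8 of 14 pigment epithelium genes and 4 of 10 microglia genes. For endothelium, mesenchyme and pluripotency 9 of 15 were, with the pluripotency gene Lin28a among them. These markers therefore do not settle whether such cells were present.

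Transcription factors and effectors of the integrated stress response were lower with vitamin E. Of 25 genes on that list, 17 were lower by 2-fold or more and 0 were higher, for a median difference of -1.53 against 0.16 for all symbols. Atf3, a stress-induced repressor and activator of transcription, had levels of 0.45 with vehicle, 4.83 with 4-OHT, 1.26 with vitamin E and 4.35 with lutein, a difference of 11.8-fold between the compared arrays. Its vitamin E level lay close to vehicle and its lutein level close to 4-OHT. Gdf15, a secreted stress cytokine, read 0.87, 4.82, 1.32 and 4.35 in the same order. Nupr1, a small chromatin protein of the stress response, read -1.60, 2.72, -0.27 and 1.87. In both, the vitamin E array was the nearer of the treated arrays to vehicle.

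Chac1, which degrades glutathione, stood at 2.94 with vehicle, 5.81 with 4-OHT, 3.28 with vitamin E and 5.81 with lutein, a difference of -2.53. Ddit3, which encodes the death-linked factor CHOP, read 2.28, 3.82, 2.29 and 3.70, and Trib3, a pseudokinase downstream of it, read 2.61, 4.67, 2.65 and 4.60. For these 2 genes the vitamin E and vehicle levels differed by less than 0.1. Cebpb, Cebpg, Atf5 and Jdp2, bZIP partners of ATF4, were 3.35- to 5.68-fold lower. Atf4 itself was high on all arrays (8.22, 8.82, 8.28 and 8.85) and 0.55 lower with vitamin E, which is under 2-fold. ATF4 is known to be controlled mainly at translation, which arrays do not measure.

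Among the eIF2alpha kinases, Eif2ak3 (PERK, the sensor of the endoplasmic reticulum) was 2.13-fold lower, Eif2ak4 (GCN2, the amino acid sensor) differed by 0.10, and Eif2ak1 (the heme-regulated kinase) and Eif2ak2 (PKR) were 0.61 and 0.50 higher. The phosphatase subunits that reverse the signal, Ppp1r15a and Ppp1r15b, were 3.45-fold and 2.18-fold lower. The kinase genes thus had no common direction, whereas 8 of 9 transcription factors on the list were at least 2-fold lower.

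**Figure D2:**
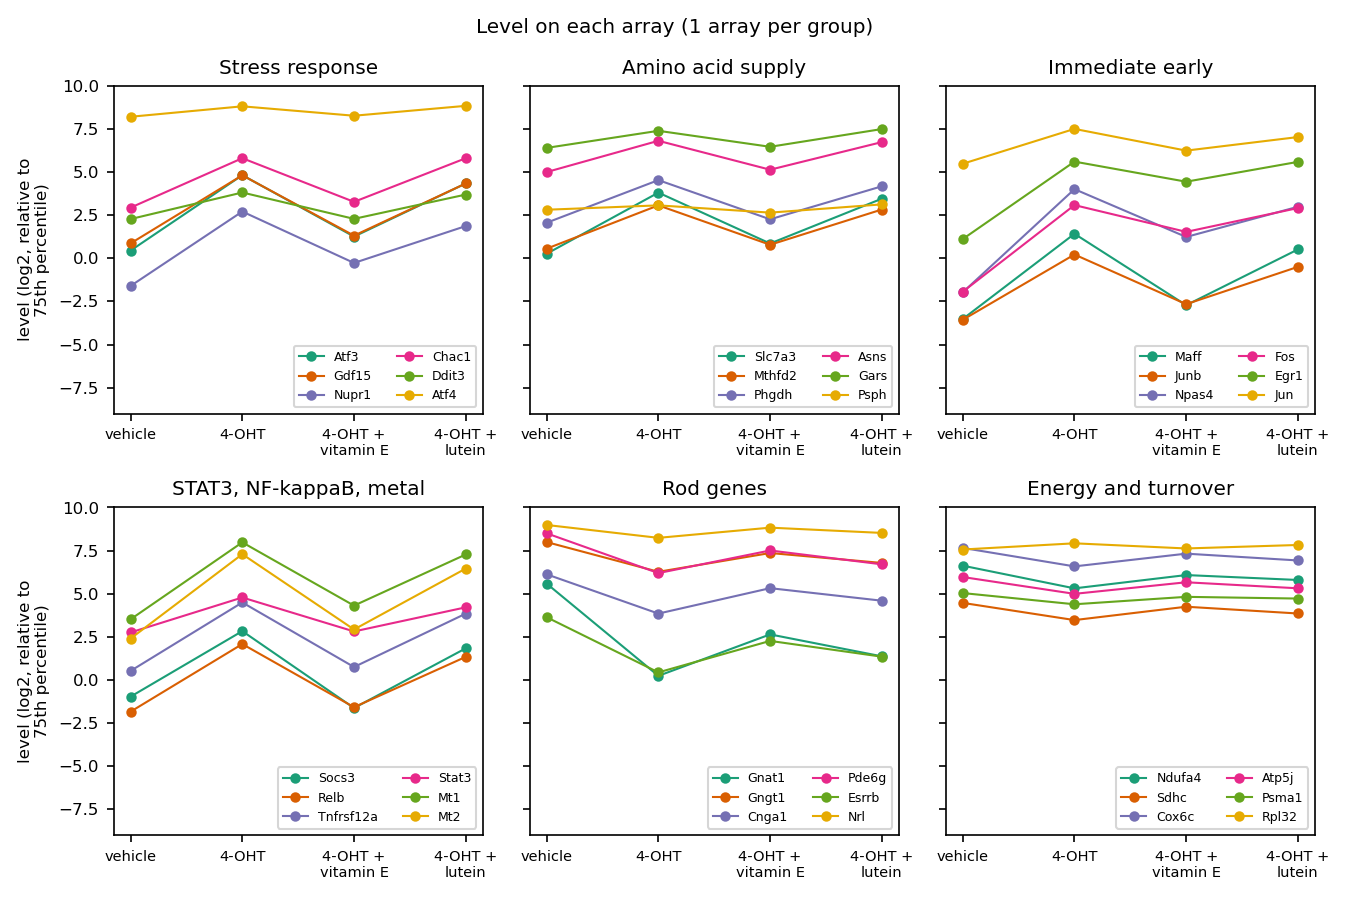
Level of 36 genes (log2, relative to each array's 75th percentile) on the 4 arrays, 1 array per group, in 6 panels of related genes. In the first 4 panels most genes peak with 4-OHT and are near vehicle with vitamin E, and in the rod panel the vitamin E array lies between 4-OHT and vehicle for each gene.

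Genes that ATF4 is known to regulate for amino acid supply were lower as well. Of 9 genes for serine, glycine, asparagine and proline synthesis, 7 were at least 2-fold lower (median -1.39). Mthfd2, of the mitochondrial folate cycle, had levels of 0.56 with vehicle, 3.08 with 4-OHT, 0.79 with vitamin E and 2.83 with lutein. Phgdh, the entry enzyme of serine synthesis, read 2.07, 4.54, 2.27 and 4.18, and Asns, asparagine synthetase, read 5.01, 6.82, 5.14 and 6.74. All 3 had a vitamin E level within 0.25 of vehicle. Psat1, Shmt2, Pck2 and Pycr1 were also past 2-fold, and Aldh18a1 and Psph were 0.83 and 0.42 lower, short of it.

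Of 9 measured amino acid importers, 6 were at least 2-fold lower (median -1.35). Slc7a3, an importer of arginine and lysine, read 0.27 with vehicle, 3.81 with 4-OHT, 0.86 with vitamin E and 3.46 with lutein, so that vitamin E lay 7.74-fold under 4-OHT alone. Slc7a11, the cystine importer that feeds glutathione synthesis, was too dim to measure with vitamin E and was at least 5.98-fold lower. Slc7a1, Slc7a5, its partner Slc3a2 and Slc38a2 were lower by 2.31, 1.98, 1.35 and 1.07. The glycine transporter Slc6a9 and the neutral amino acid transporter Slc1a4 differed by 0.10 and 0.17 in the other direction.

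Aminoacyl-tRNA synthetases, which load amino acids onto tRNA, were lower in part. Of 20, 3 were at least 2-fold lower (Tars, Cars and Eprs) and the median was -0.61. Gars, whose promoter stretch is printed above, read 6.41 with vehicle, 7.40 with 4-OHT, 6.47 with vitamin E and 7.50 with lutein. It was 1 of 8, among them Sars, Lars and Aars, that were 0.56 to 0.97 lower. The synthetases for glutamine, lysine, aspartate and histidine (Qars, Kars, Dars and Hars) were 0.23 to 0.50 higher.

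Chaperones of the endoplasmic reticulum did not follow the stress response list. Of 14 chaperone genes, 0 were past 2-fold in either direction and the median was 0.33. The lowest was Dnajb9 at -0.74, and its other probe gave -1.42, past 2-fold. Hspa5 (BiP, the main chaperone there) was 0.44 lower, and Pdia4, Pdia3 and Hsp90b1 were 0.75, 0.48 and 0.44 higher. Among 10 sensors and degradation factors 2 were past 2-fold, Ern1 (the sensor IRE1) at -1.43 and Herpud1 (which helps to degrade misfolded proteins) at -1.36. Xbp1, the transcription factor that IRE1 activates by splicing, was 0.24 lower, a value over all its transcripts.

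Of 16 heat shock genes, cytosolic and mitochondrial, 4 were at least 2-fold lower, 0 were higher and 13 were below 0. Hspa1a, the inducible HSP70, read 0.40 with vehicle, 3.01 with 4-OHT, 0.13 with vitamin E and 1.74 with lutein. It was 7.33-fold lower once vitamin E was present, and its vitamin E level lay below vehicle. Hspb1 (HSP27), Hspb8 and Bag3, which work together on damaged proteins, were the others, with -1.85, a bound of -1.37 and -1.28. Constitutive chaperones such as Hspa8 and Hsp90aa1 differed by under 0.1. The list median of -0.21 was 0.01 under spike-in scaling.

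Immediate early genes, which are transcribed within minutes of a stimulus, were lower to unequal extents. Of 25 measured, 14 were lower by 2-fold or more and 0 were higher (median -1.26), and 6 of 7 AP-1 genes were among them. Maff, a small MAF factor, had levels of -3.52 with vehicle, 1.43 with 4-OHT, -2.72 with vitamin E and 0.52 with lutein, a difference of 17.7-fold. Junb read -3.56, 0.22, -2.66 and -0.49. Both lay within 1 log2 unit of vehicle.

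Other members were lower yet well above their vehicle level. Fos read -1.94 with vehicle, 3.09 with 4-OHT, 1.54 with vitamin E and 2.92 with lutein. Egr1, a zinc finger factor induced by MAP kinase signalling, read 1.12, 5.61, 4.45 and 5.60, a difference of -1.17. Npas4, a factor specific to calcium entry in neurons, read -1.97, 4.02, 1.24 and 2.99. In these 3 genes the vitamin E array lay over 3 log2 units above vehicle. Egr4 was the extreme of this pattern: at -4.92, 0.16, -0.39 and -0.05 it differed by only -0.55 between vitamin E and 4-OHT alone. Jun (-1.26), Fosl2 (-1.32), Nr4a1 (-1.31) and Arc (-2.29) were past 2-fold, whereas Srf differed by -0.07. Homer1, a synaptic scaffold gene, depended on the probe: the brightest gave 0.02 and the others -2.01, -1.05, -0.78 and -0.33.

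Feedback genes of the same signalling were partly lower. Among 10 MAP kinase phosphatases, Dusp4, Dusp1 and Dusp16 were at least 2-fold lower, Dusp14 was 1.03 higher, and Dusp6, which is specific to ERK, differed by -0.10. Of 11 Kruppel-like factors, Klf4, Klf5 and Klf6 were lower by 2.65, 2.15 and 1.24, and the list median of -0.17 changed sign under spike-in scaling. Of 14 growth factors, 6 were at least 2-fold lower, but 5 of the 14 were bounds. Areg, Fgf2, Lif and Gdnf entered through the 4-OHT array alone, so they could not have been counted as higher. Vgf, a neuropeptide precursor, read 1.43 with vehicle, 3.64 with 4-OHT, 1.28 with vitamin E and 2.92 with lutein. Fgf2 and Lif, survival factors that injured retina is known to make, were dim on the vitamin E array and at least 3.01-fold and at least 2.47-fold lower, and the ERK-pathway ligand Areg at least 8.79-fold.

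Inflammatory genes held several of the largest differences. Of 30 listed, 20 were measured, 7 of them as bounds. Of the 20, 12 passed 2-fold downward and 0 upward (median -1.70, or -0.85 over genes detected on both arrays). Bounds such as Bcl3, Cxcl10, Ccl2 and Cxcl1 entered through the 4-OHT array alone, so they could not have been counted as higher. Bcl3, a nuclear partner of NF-kappaB, reached 0.93 with 4-OHT and -0.18 with lutein and was too dim to measure with vitamin E, so that it was at least 44.2-fold lower. The chemokines Cxcl10, Ccl2 and Cxcl1 were likewise dim with vitamin E and at least 27.6-fold, 20.4-fold and (as a log2 bound) 3.90 lower. Relb, a subunit of the alternative NF-kappaB pathway, was measured on every array at -1.84, 2.08, -1.59 and 1.33. Tnfrsf12a, the receptor for TWEAK, read 0.52, 4.49, 0.75 and 3.84. Both lay within 0.3 of vehicle with vitamin E and within 0.8 of 4-OHT with lutein. The principal subunits Nfkb1 and Rela were 0.37 and 0.74 lower, and the inhibitor Tnfaip3 differed by -0.06. Il1b, Il6 and Tnf were not well above background on either array.

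Of 18 measured genes of STAT3 signalling and the reactive response of glia, 15 were below 0 and 8 were at least 2-fold lower (median -0.72). Bounds made up 3 of the 18. Socs3, the feedback inhibitor that STAT3 induces, stood at -0.97 with vehicle, 2.83 with 4-OHT, -1.63 with vitamin E and 1.83 with lutein, a difference of 22.0-fold. Stat3 itself read 2.75, 4.78, 2.81 and 4.21. Osmr, a receptor for oncostatin, and Edn2, an endothelin that stressed photoreceptors are known to make, were dim with vitamin E and at least 8.18-fold and 7.35-fold lower. Timp1, an inhibitor of matrix proteases, was 3.42 lower on the log2 scale. Gfap, the classic marker of reactive Müller glia, was near background throughout, with a bound of -0.66. Of 9 measured interferon response genes Irf1 (9.35-fold), B2m, Bst2 and Irf9 were at least 2-fold lower, and 12 of 21 listed genes were not measured.

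Some microglia markers were lower too. Of 10, 4 were measured: the lysosomal glycoprotein gene Cd68 was 2.28 lower and Itgam 1.44 lower, Csf1r was 0.26 lower, and Tmem119 had a bound of 0.44. Other probes gave a bound of -0.60 for Itgam and 0.19 for Csf1r. Over the whole list of 10 the median level was -6.10 with vehicle, -5.75 with 4-OHT, -5.98 with vitamin E and -5.96 with lutein. The defining microglia genes named above were at background, and the part of such cells in the inflammatory results was not tested.

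Metallothioneins, small cysteine-rich proteins that bind zinc and copper and are induced through MTF1, differed by more than the zinc transporters. Mt2 had levels of 2.40 with vehicle, 7.29 with 4-OHT, 2.92 with vitamin E and 6.46 with lutein, a difference of 20.7-fold. Mt1 read 3.51, 7.98, 4.31 and 7.27, a 12.7-fold difference. Vitamin E lay within 0.9 of vehicle in both and lutein within 0.9 of 4-OHT. Mt3, the form typical of neurons, differed by 0.17. Slc30a1, the zinc exporter that MTF1 also induces, was 0.52 lower, and none of the 7 genes for zinc transport and MTF1 was past 2-fold.

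Antioxidant enzymes gave small differences. Of 20 genes of the NRF2 pathway 12 were above 0 (median 0.14), against 9377 of 14331 for all symbols. Only Hmox1, which degrades heme, was past 2-fold in that list: it read -0.01 with vehicle, 3.45 with 4-OHT, 0.73 with vitamin E and 3.12 with lutein. The glutathione synthesis genes Gclc and Gclm were 0.56 and 0.35 lower, Srxn1 0.38 lower, and Gsr, Gstp1 and G6pdx 0.76, 0.74 and 0.72 higher, so the pathway's members did not share a direction. Nqo1 was not well above background. Of 16 peroxide and superoxide enzymes, 12 were above 0 and none past 2-fold (median 0.44). Cat, catalase, was the lowest of the 4 below 0 at -0.98, with levels of 0.16, 1.34, 0.36 and 0.63, but its other probe gave 0.73. Sod2, the mitochondrial dismutase, was 0.46 higher. Txn2, at 0.46, had a second probe past 2-fold in the opposite direction, and the mean of both was -0.32.

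Of 14 genes tied to lipid peroxidation and iron 11 were above 0, with a median of 0.37 against 0.16 for all symbols, of which 9377 of 14331 were above 0. Gpx4, the enzyme that reduces lipid peroxides in membranes, had levels of 7.63 with vehicle, 6.94 with 4-OHT, 7.35 with vitamin E and 7.25 with lutein. The vitamin E level was 0.41 above 4-OHT alone and below vehicle. Acsl4, which places polyunsaturated fatty acids into membranes, and Tfrc, the transferrin receptor, were 0.67 and 0.62 higher, although other probes of Tfrc gave 0.39 and -0.01. Ptgs2, a cyclooxygenase gene often used as a mark of ferroptosis and also an inflammatory gene, was at least 4.05-fold lower.

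Of 16 genes on the array for the handling of vitamin E and carotenoids, 9 were measured, of which 7 were above 0 (median 0.66). Scarb1, a receptor that takes up lipoprotein lipids including vitamin E and lutein, read 4.46 with vehicle, 3.60 with 4-OHT, 4.43 with vitamin E and 4.02 with lutein. Sec14l2, a tocopherol-associated protein, was 0.66 higher. Bco2, a mitochondrial enzyme that cleaves carotenoids, was at least 2.27-fold higher, and Cyp4f14, of the cytochrome family that breaks down vitamin E, had a bound of 0.79. Both were dim, at -2.89 and -3.61 with vitamin E. They were the 2 bounds among the 9 genes and entered through the vitamin E array alone. They could therefore not have fallen below 0, and both are in the count above 0 and in the median. Ttpa, the tocopherol transfer protein, was not well above background.

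Cholesterol genes lay within 2-fold. Of 26 genes of synthesis and uptake, 0 were past 2-fold, and the median of 0.08 was -0.00 after quantile normalization. Hmgcs1 read 5.24 with vehicle, 5.85 with 4-OHT, 5.80 with vitamin E and 6.18 with lutein, so that all 3 treated arrays lay above vehicle. Of 13 sterol efflux and LXR genes 0 were past 2-fold (median 0.27), with Abcg1 and Abca1 0.89 and 0.60 higher. Lysosome (21 genes, median 0.15) and autophagy (16 genes, median 0.23) genes also had 0 past 2-fold.

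Cell death genes had no common direction: of 22 measured, 10 were above 0 and 12 below. Bbc3 (PUMA), which frees the death effectors of mitochondria, read 2.45 with vehicle, 4.75 with 4-OHT, 2.75 with vitamin E and 4.49 with lutein. Hrk, a related protein of neurons, read 1.14, 3.16, 1.25 and 3.01. Both were within 0.4 of vehicle with vitamin E. Pmaip1 and Fas were dim with vitamin E and at least 2.60-fold and 2.30-fold lower. The effectors Bax and Bak1 and the survival factor Mcl1 differed by 0.10 or less, and Bcl2l1 (BCL-XL) was 0.65 higher. Over all 22 genes 4 were past 2-fold. Of 19 targets of p53, 6 were at least 2-fold lower, led by the cell cycle inhibitor Cdkn1a at 4.19-fold, whereas Mdm2 and Gadd45a differed by -0.13 and 0.03. Both list medians, -0.06 and -0.13, changed sign under spike-in scaling and over genes detected on both arrays.

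**Figure D3:**
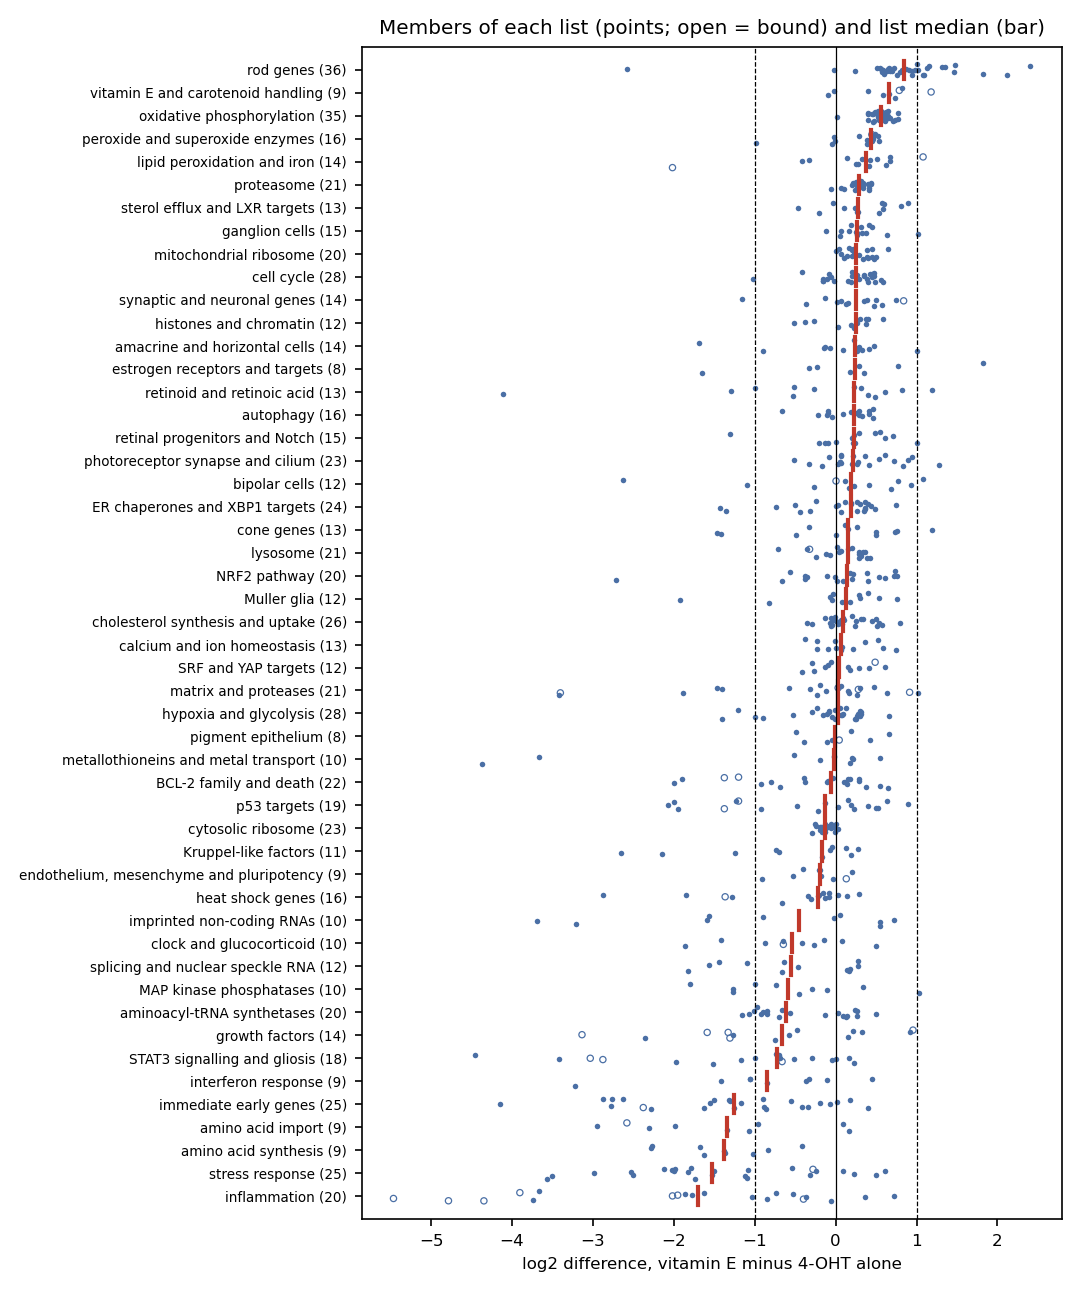
Each point is a measured gene and the horizontal axis is its log2 difference (vitamin E minus 4-OHT alone) in the gene list of its line, with open points for bounds, a red bar at the list median, dashed lines at 2-fold and the number of measured genes in brackets. The rod list has the highest median, 0.85, and the inflammation list the lowest, -1.70 with its bounds counted.

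Rod genes were higher with vitamin E. The 36 measured comprised 13 past 2-fold upward and 1 past it downward, 34 were above 0, and the median was 0.85. In pooled tissue, fewer rods and less RNA per rod cannot be told apart. Gnat1, rod transducin alpha, had levels of 5.58 with vehicle, 0.23 with 4-OHT, 2.64 with vitamin E and 1.37 with lutein, so that vitamin E lay 5.29-fold above 4-OHT alone. The vitamin E level sat between 4-OHT and vehicle, and was still over 2 log2 units below vehicle.

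Of the 17 phototransduction genes, Gnat1 included, 9 were at least 2-fold higher and 16 were above 0. Cnga1, the channel subunit that cGMP opens, read 6.12 with vehicle, 3.85 with 4-OHT, 5.32 with vitamin E and 4.59 with lutein. Pde6g, the inhibitory subunit of the phosphodiesterase, read 8.50, 6.19, 7.51 and 6.70, while the catalytic subunits Pde6b and Pde6a were 0.87 and 0.54 higher. Gngt1, Gnb1 and Cngb1 were 1.09, 1.08 and 1.01 higher, although other probes of Cngb1 gave 0.28 and 0.83. Rgs9bp, which anchors the complex that ends the response, was past 2-fold by the limit itself, at 1.00, and its other probe gave -0.14. Grk1, a kinase that shuts off the light response, and Guca1a, an activator of guanylate cyclase, differed by -0.02 and 0.23. Rcvrn, recoverin, which restrains that kinase in the dark, was 1.28 higher at 7.46, 5.35, 6.63 and 6.03.

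Rod transcription factors differed less. Nrl read 8.99 with vehicle, 8.24 with 4-OHT, 8.83 with vitamin E and 8.53 with lutein, a difference of 0.59. Nr2e3, which represses cone genes in rods, was 0.82 higher, Crx 0.68 and Samd7, a silencing factor, 0.98. The estrogen-related receptor gene Esrrb, needed for rod survival, was the single one of 6 past 2-fold, at 3.63, 0.43, 2.26 and 1.35. Of 13 outer segment genes, Fscn2, Impg1 and Rp1 were past 2-fold upward, and 1 was past it downward, at -2.58. The disc rim genes Prph2 and Rom1 were 0.94 and 0.51 higher.

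Cone genes had no common direction, with 1 of 13 at least 2-fold higher, 2 lower and a median of 0.15. Gnat2, cone transducin alpha, read 1.22 with vehicle, -0.07 with 4-OHT, 1.12 with vitamin E and 0.11 with lutein. Arr3, cone arrestin, was 1.42 lower by one probe and 0.40 lower by another. Opn1sw, the short-wavelength opsin, differed by -0.00. Among 23 genes of the photoreceptor synapse and cilium Rcvrn, listed there too, was the one past 2-fold, and Slc17a7, the glutamate loader of synaptic vesicles, was 0.72 higher.

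Markers of the other retinal cells shifted little as lists. The medians were 0.13 for Müller glia (12 genes), 0.20 for bipolar cells (12), 0.24 for amacrine and horizontal cells (14), 0.27 for ganglion cells (15) and 0.22 for progenitors and Notch (15), against 0.16 for all symbols. Clu, clusterin, a secreted chaperone that Müller glia also make, was 1.93 lower, at 4.71, 6.95, 5.02 and 6.33. Glul, Rlbp1 and Slc1a3, which define Müller glia, differed by 0.40, -0.05 and 0.08. Grm6, the glutamate receptor of ON bipolar cells, was 1.08 higher. Cabp5, a bipolar gene, had probes at -2.63 and 0.74. Pigment epithelium genes (8 of 14 measured) had 0 past 2-fold, with Dct at 0.99, 3.41, 2.92 and 3.24, which left vitamin E close to 4-OHT alone. For endothelium, mesenchyme and pluripotency, 9 of 15 were measured and 0 were past 2-fold.

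Mitochondrial energy genes were higher together, by small amounts. All 35 measured genes of oxidative phosphorylation lay above 0, with a median of 0.56 and none past 2-fold. Of all symbols, 9377 of 14331 lay above 0. The symbol median was 0.16, or 0.24 in the brightest of 5 equal groups of genes by signal. Ndufa4, a respiratory chain subunit, had levels of 6.63 with vehicle, 5.31 with 4-OHT, 6.08 with vitamin E and 5.80 with lutein. Sdhc, of complex II, read 4.47, 3.47, 4.24 and 3.85, and Cox6c, of complex IV, read 7.66, 6.58, 7.32 and 6.93. The order of the arrays was the same in these 3 genes, with vehicle highest, then vitamin E, lutein and 4-OHT. The medians for complex I, complexes II to IV and ATP synthase were 0.61, 0.54 and 0.56. Uqcrq, of complex III, was the lowest at 0.01.

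Other housekeeping machinery differed less. All 20 mitochondrial ribosome genes were above 0 (median 0.26), as were 20 of 21 proteasome genes (median 0.29). Of all symbols, 9377 of 14331 were above 0, with a median of 0.16. These lists are bright, and symbols in groups 4 and 5 of 5 equal groups by signal (5 brightest) had medians of 0.21 and 0.24. Of 23 cytosolic ribosome genes 22 were below 0, with a median of -0.14 that became 0.09 under spike-in scaling. Cell cycle genes had a median of 0.25, with Mcm5 and Mcm6, of the replication helicase, 0.59 and 0.56 higher and Mki67, the proliferation marker, at -0.08. Glycolytic enzymes (19 genes) had 0 past 2-fold. Vegfa and Adm, both induced by low oxygen, were lower by 1.41 and 1.20. Vegfa, the angiogenic growth factor, read 2.15 with vehicle, 4.39 with 4-OHT, 2.98 with vitamin E and 3.83 with lutein.

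Genes tied to the drug itself were few. Esr2, the beta estrogen receptor, read 1.44 with vehicle, 2.75 with 4-OHT and 1.56 with lutein, and lay 1.65 lower with vitamin E than with 4-OHT, so that lutein and vitamin E were both near vehicle. Esr1, Pgr and Tff1 were not well above background. Greb1, an estrogen target in other tissues, differed by -0.33. Cyp1b1, of the aryl hydrocarbon receptor pathway, was 0.98 higher at -0.48, -0.23, 0.76 and -0.08, and so was high on the vitamin E array alone. Drug metabolism genes had 0 of 6 past 2-fold.

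Aldh1a3, which makes retinoic acid, was among the lowest genes, at -5.23 with vehicle, 0.68 with 4-OHT, -3.44 with vitamin E and -0.61 with lutein, or 17.3-fold lower. Aldh1a1, its paralogue of the dorsal retina, went the other way at 3.92, 3.82, 5.01 and 4.18. These 2 enzymes of one reaction thus had opposite differences, 4.11 down and 1.19 up. Of the matrix and protease list (21 genes), Plaur, the receptor of urokinase, was at least 10.6-fold lower and Adamts1, Plat, Tnc and Timp1 were past 2-fold, while Mmp2 was 1.02 higher.

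Several long non-coding RNAs of imprinted regions and nuclear bodies were lower. Of 10 measured imprinted RNAs and neighbouring genes, among them the coding genes Igf2 and Cdkn1c, 4 were at least 2-fold lower. Airn, the antisense RNA of the Igf2r locus, read -0.24 with vehicle, 2.61 with 4-OHT, -1.08 with vitamin E and 0.97 with lutein. Kcnq1ot1, the silencing RNA of the Kcnq1 domain, read -0.69, 1.75, -1.46 and -0.07. In both, vitamin E lay below vehicle. Meg3, Malat1 and Neat1 were 1.57, 1.44 and 1.82 lower. Airn had 4 probes, from -0.88 as a bound to -3.69, so its size depends on the probe. H19 and Igf2 differed by 0.05 and -0.02.

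By position in the ranking, the 10 lowest symbols detected on both arrays were Slc23a3, Socs3, Mt2, Maff, Aldh1a3, Madcam1, Tnfrsf12a, Airn, Mt1 and Relb. Slc23a3, an orphan member of the vitamin C transporter family, was the lowest at 33.4-fold, with levels of -3.95, 0.86, -4.20 and -0.98. Its probe lies at chr1:75122117-75122176 on the array's mm9 build. Some of these were dim with vitamin E: Slc23a3 at -4.20, Madcam1 at -3.73 and Aldh1a3 at -3.44. The faintest signal called well above background on that array was -4.54. Others were bright there, such as Mt1 at 4.31 and Mt2 at 2.92. The highest included the rod genes Gnat1, Fscn2 and Esrrb together with genes near background such as Tm6sf1 (5.57-fold), Shisa9 (5.47-fold), Irgm2 and Ms4a3. Irgm2, an interferon-induced GTPase, read -6.21 with vehicle, -3.99 with 4-OHT, -1.67 with vitamin E and -6.11 with lutein, each from 1 spot. Map3k19, Ifnk and Baiap3 were dim on every array but that of vitamin E with bounds of 7.27-fold, 6.73-fold and 6.19-fold.

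The lists covered 130 of the 737 lower symbols and 24 of the 207 higher ones, so most genes past 2-fold lay outside them. Genes with no symbol added many. Of 2859 lincRNA regions, 420 (14.7%) passed 2-fold downward and 43 upward, with a median of -0.14, and of 4961 clone or predicted genes 795 were lower. These classes were dimmer: symbols made up 1836 of 4431 genes in the dimmest of 5 equal groups by signal and 3252 of 4430 in the brightest. Dim genes passed 2-fold more often in general. In the dimmest group 17.4% were lower and 3.18% higher, and in the brightest 3.27% and 0.858%. The median of the dimmest group was -0.30 and of the brightest 0.20. Bounds made up 2075 of all genes, 2061 of them in the dimmest group.

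**Figure D4:**
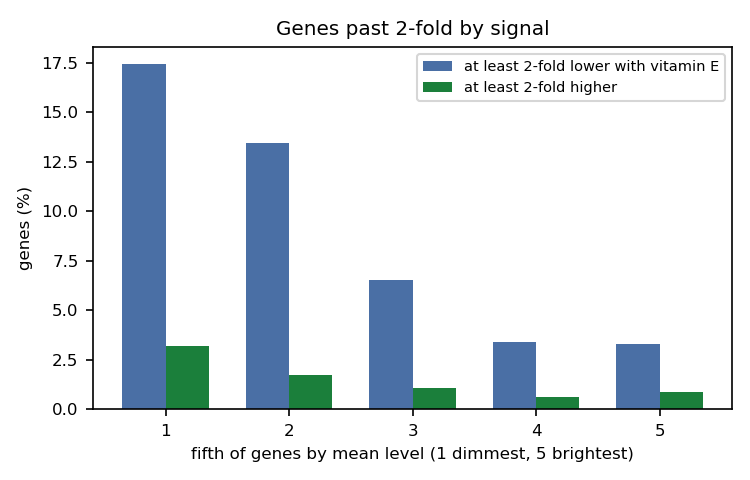
Share of genes (%, vertical) at least 2-fold lower (blue) or higher (green) with vitamin E in 5 equal groups of genes by mean level on both arrays (horizontal, 1 dimmest). The lower share goes from 17.4% in the dimmest group to 3.27% in the brightest.

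Promoter letters were counted on both strands over the 300-base windows, for the 11920 measured genes with a promoter in the table. Sites of different motifs may overlap, and a match is only a description of letters. The ATF4 composite was held by 0.562% of measured genes, 2.19% of those at least 2-fold lower and 1.22% of those higher, against 0.969% of all 27025 promoters. Among the 67 measured genes with it 20.9% were at least 2-fold lower, against 5.27% of the others. It was found in 3 of 13 synthetase promoters, 2 of 23 of the stress response list, 1 of 9 for amino acid synthesis and 0 of 6 for amino acid import. Slc23a3, the lowest symbol among those detected on both arrays, has it 160 bases before its start.

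The AP-1 element was held by 4.89% of measured genes, 10.2% of the lower ones and 8.54% of the higher ones, against 7.93% of all promoters, so that it was more frequent on both sides than among measured genes. It was in 3 of 14 inflammation promoters and 0 of 21 immediate early ones. Metal response elements are short and were held by 59.6% of measured genes, and by 58.2% of the lower ones. Their number sets Mt2 apart: its window has 6, as many as 0.207% of all promoters reach, and that of Mt1 has 3, which 6.95% reach. The heat shock element was in 7 of 10 heat shock promoters against 5.81% of measured genes and 7.95% of all. CRX letters were in 10 of 27 rod promoters (37.0%), 5.89% of measured genes and 7.16% of all. They were in 9.15% of the higher genes and 6.57% of the lower ones. Among genes at least 4-fold lower they were in 13 of 139 (9.35%), so they were not particular to the higher side.

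Further motifs differed in how far their shares lay from those of measured genes. The cAMP response element, TGACGTCA, was in 2.66% of lower and 0.610% of higher genes against 3.24% of measured and 1.88% of all promoters. The STAT element, TTCNNNGAA, was in 64 of 639 lower genes and 17 of 164 higher ones (10.4%) against 833 of 11920 measured (6.99%) and 8.47% of all, and so was more frequent on both sides than among measured genes. Among genes at least 4-fold lower it was in 9 of 139 (6.47%). The antioxidant response element, TGACNNNGC, was in 14.2% of lower and 14.6% of higher genes against 14.3% of measured and 12.5% of all. The EGR element, GCGTGGGCG, was in 0.313% of lower genes and 1.11% of measured ones.

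**Figure D5:**
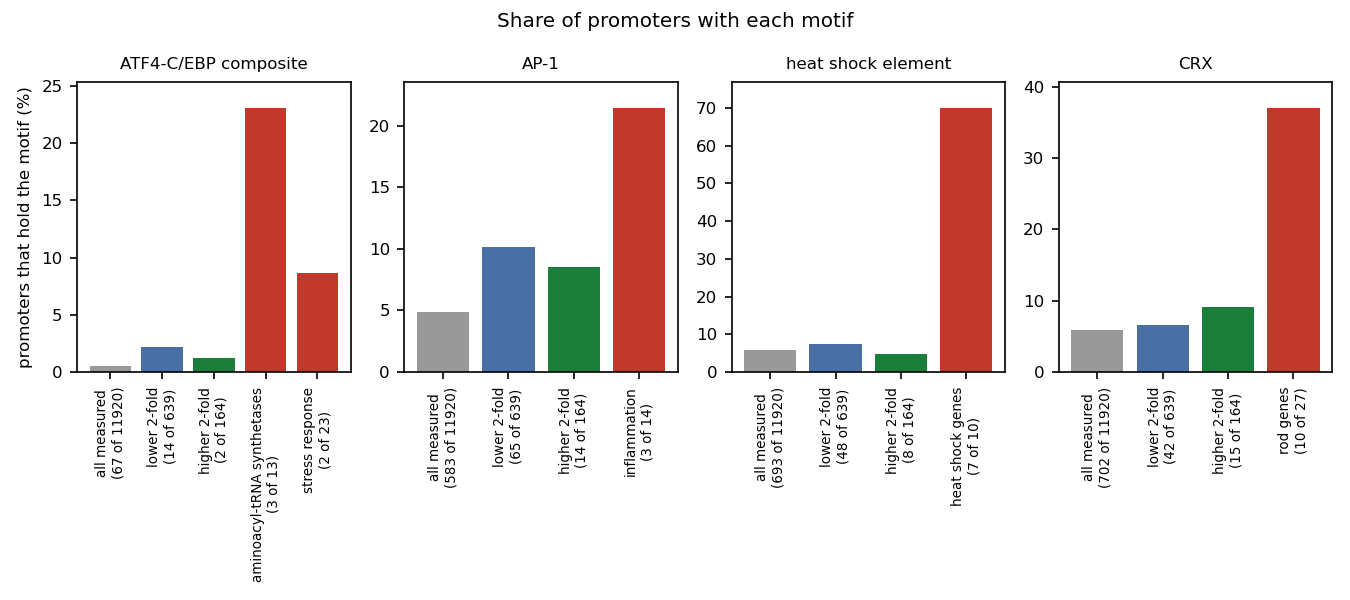
Share of promoters (%, vertical, a scale of its own in each panel) that hold each of 4 motifs among all measured genes, genes at least 2-fold lower or higher with vitamin E, and the gene lists named, with counts under the bars. CRX letters are in 10 of 27 rod promoters and the heat shock element in 7 of 10 heat shock promoters.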

How the data were processed

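RNA of 4 pooled samples, 1 per group, had been labelled with Cy3 and hybridised to Agilent 1-colour mouse arrays. Feature Extraction 10.7.3.1 is the scanner software in the submitters' processing notes. The deposited spot intensity was, per the file headers, background-subtracted and detrended, with no normalization between arrays and with a design annotated on mm9. The authors' deposited value table holds linear signal divided by 1 number per array (494.2 for vehicle, 434.1 for 4-OHT, 468.9 for vitamin E, 479.2 for lutein), neither logged nor centred, as comparison with the scanner values showed. Its direction is that of a level, and its column medians were 0.0794, 0.0949, 0.0736 and 0.0847.

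Control spots and outlier spots (137 to 164 per array of 62976) were left out. Intensities were taken to log2, each array's 75th percentile over gene spots was subtracted, spots of a probe were averaged, and a gene was represented by its brightest probe, judged on the mean of all arrays. Gene names came from the file of the 4-OHT array, since 57 names on the lutein file had been altered. RefSeq symbols (GRCm38.p6, names and promoters only) replaced 1403 names through 28331 matched accessions of 55681 probes. Probe positions in exons or UTRs were not analysed here. A probe not well above background was given the array's detection floor, the faintest signal that the scanner software called well above background, or its own signal if that was higher. The difference is then a bound, while levels in the text are as measured, and 28 genes had no fold.

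The comparison, the 54 lists (956 symbols, 944 on the array, 836 measured) and the motifs were chosen with earlier results of these data known. Genes named are a selection from the 10 lowest and 10 highest symbols that both arrays detected, 3 bounds a side, members of a fixed core and the 6 members of each list with the largest difference. Other members are given to show the range of their list and were chosen after their values were seen. Each comparison with 4-OHT uses the same 4-OHT array. Some members are counted in their lists and not reported by name here. Promoters were matched by symbol for 53.8% of measured genes. The number of arrays, 1 per group, sets the precision. Steps were tested on simulated data. Alternatives were other fold limits, median, quantile and spike-in scaling (8 of 10 spike-in probes), normexp background correction (offset 50), detection on both arrays, no filter, the mean of a gene's probes and the value table. Software was limma 3.58.1 in R 4.3.3, and pandas 2.3.3, NumPy 2.4.6 and matplotlib 3.10.9 in Python 3.11.15.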

Additional observations from a re-analysis of the deposited data

Results flagged for a closer look

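One control probe outside the gene measurements cleared background in all its spots on the 4-OHT array and in a minority of them on the other arrays. Probe ERCC-00113 of the external RNA control set, whose RNAs the labels do not mention as added, had a median signal of 55.61 over 28 spots there, where the vehicle array gave 16.9, the vitamin E array 13.3 and the lutein array 27.2. The signal drew attention because it lay in data that no comparison uses and above its level on the vehicle array. Its origin was not tested.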

How the results depend on the processing

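The counts depended on the fold limit, the background method and the filter, and the higher count also on quantile and spike-in scaling. With a 1.5-fold limit 3456 genes were lower and 1895 higher (5315 and 2530 probes), and with a 4-fold limit 519 and 33 (776 and 45 probes). Quantile normalization left 1534 genes lower, 1484 of them among the main 1952, and raised the higher side to 688 genes (977 probes). Spike-in scaling moved the median of all genes up by 0.22 and gave 1466 lower and 765 higher genes (999 probes higher). Normexp background correction gave 1040 lower genes, 1039 of them among the main ones, and 133 higher (1419 and 154 probes). Detection on both arrays left 1354 and 225 genes (1877 and 268 probes), and no filter gave 3713 and 969 (6155 and 1490 probes). Median scaling, the mean of a gene's probes and the authors' value table gave 1912 to 1935 lower and 304 to 346 higher genes. The cause of these shifts was not tested, apart from limits and filters, which change what is counted. Of the gene list medians under the alternatives, 325 values moved by less than the spot noise of 0.096 and the others by more, and 0 of those beyond 0.5 changed sign. Lists whose median changed sign in at least 1 scaling were cholesterol, hypoxia and glycolysis, pigment epithelium, endothelium, crystallins, heat shock, Kruppel-like factors, metallothioneins, BCL-2, p53 and cytosolic ribosome. No paired analysis was possible because a single replicate number stood behind each treatment. Dim signal limits the bounds, and among 5977 genes with several detected probes 200 of 995 with any probe past 2-fold had all past it the same way, while 19 had probes past it in opposite directions.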
